A study of Mus musculus with 24 samples.

Results

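Oxidative phosphorylation is carried out by 5 protein complexes of the inner mitochondrial membrane, and most of their subunits are encoded in the nucleus. The genes described here are the mouse protein-coding genes whose symbols start with *Nduf*, *Uqcr*, *Atp5* or *Cox4* to *Cox8*, together with *Sdha* to *Sdhd*. The symbol rule found 92 genes, and 88 of them had more than 5 reads in all 3 libraries of at least 1 group and were tested among 18593 tested genes. All 88 passed this minimum in all 4 groups. The 4 genes that were not tested were *Cox8b*, *Cox8c*, *Atp5l-ps1*, a pseudogene by its symbol, and a duplicate entry of *Ndufb8* that held no read. The symbol rule also takes in 4 complex I assembly factors (*Ndufaf1* to *Ndufaf4*), the supercomplex factor *Cox7a2l*, and *Cox4nb*, *Atp5s* and *Atp5sl*, whose products are not structural subunits.

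Complex I, the NADH dehydrogenase, passes electrons from NADH to ubiquinone and pumps protons. Complex II, succinate dehydrogenase, feeds electrons from the citric acid cycle and has no mitochondrially encoded subunit. Complex III hands electrons on to cytochrome c, complex IV (cytochrome c oxidase) passes them to oxygen, and complex V, the ATP synthase, uses the proton gradient through its membrane part Fo and its catalytic part F1. Neurons draw most of their ATP from this chain. Its assembly needs subunits from the nuclear and the mitochondrial genome together, which nuclear respiratory factors and coactivators such as PGC-1alpha are known to coordinate.

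The 12 libraries were made from the nucleus accumbens (NAc), a ventral striatal region of the reward circuit, of C57BL/6J mice, for which the labels name no transgene or drug. The 4 groups of 3 libraries were nonstressed males (NSM), males after subchronic variable stress (SM), nonstressed females (NSF) and females after subchronic variable stress (SF). Subchronic variable stress (SCVS) was 6 days of foot shock, tail suspension and restraint, and tissue was taken 24 h after the last stressor. The mice were 9 weeks old by the sample labels and 8 weeks by the study's methods, and only females in proestrus or estrus were taken. For each library 10 punches of 5 mice were pooled, so the spread between libraries is a spread between pools.

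The libraries held 41076780 to 60867747 counted reads, and the 88 genes took 0.759% to 0.848% of them. *Xist* and *Ddx3y* matched the labelled sex in all 12. Medium spiny neuron markers such as *Drd1a*, *Drd2* and *Ppp1r1b*, the defining genes of striatal projection neurons, were present in every library, with summed levels of 5645 to 7085 CPM, read counts scaled to the effective size of each library. The 10 markers of cortical glutamatergic neurons, which should be low in the NAc, summed to 51.0 to 70.1 CPM in NSM, 93.5 to 256 in SM, 67.6 to 434 in NSF and 88.9 to 168 in SF, so that the libraries differed in how much of this signal they held.

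The 88 genes were abundant. Per kilobase of exon, the scale on which levels of different genes can be compared, the median member stood at 43.9 CPM, above 89.8% of the tested genes with an annotated length. *Cox4i1*, the common isoform of the largest nuclear subunit of complex IV, was the highest of all members at 365 ± 22.3 CPM per kilobase (mean ± SD over 12 libraries). *Ndufa4*, a small subunit now placed in complex IV, followed at 306 ± 21.7, and *Atp5a1*, the alpha subunit of the F1 part, at 277 ± 13.8 CPM per kilobase. *Cox4i1* and *Ndufa4* lay further apart than the sum of their SDs, whereas *Ndufa4* and *Atp5a1* did not.

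Within complex I, the highest level per kilobase was that of the accessory subunit *Ndufb9* (162 ± 11.7 CPM) and the lowest that of the accessory subunit *Ndufb2* (2.86 ± 0.185 CPM). The annotated exons of *Ndufb2*, by whose length its level was divided, sum to 5628 bases and overlap exons of other genes. Among the core subunits the lowest level was that of *Ndufs3*, at 29.2 ± 1.67 CPM per kilobase. The assembly factors, which do not stay in the finished complex, were lower, from 9.16 ± 0.391 for *Ndufaf4* to 20.1 ± 1.41 for *Ndufaf3*. In complex II the flavoprotein *Sdha* stood at 110.0 ± 4.68 CPM per kilobase, the iron-sulfur protein *Sdhb* at 42.6 ± 1.98 and the membrane anchors *Sdhc* and *Sdhd* at 22.9 ± 1.32 and 52.1 ± 3.22. In complex III the core protein *Uqcrc1* was highest (102 ± 6.32) and the small subunit *Uqcrq* lowest (17.9 ± 5.23). *Uqcrq* also had the widest relative spread of these subunits between libraries. In complex V the F1 epsilon subunit *Atp5e* was the lowest F1 gene at 32.2 ± 4.14, and *Atp5k*, a small Fo subunit, was the highest Fo gene at 120.3 ± 10.7 CPM per kilobase.

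Several complex IV subunits have a second isoform that is known from muscle, lung, testis or hypoxic cells, and these were nearly absent from the NAc. *Cox6a2*, the heart and skeletal muscle isoform, reached 2.52% ± 0.356 (SD, n = 12 libraries) of the level of *Cox6a1* per kilobase, the highest share among these isoforms. *Cox7a1*, also a muscle isoform, stood at 1.04% ± 0.316 of *Cox7a2*. *Cox4i2*, the lung isoform, stood at 0.526% ± 0.0987 of *Cox4i1*, the testis isoforms *Cox6b2* and *Cox7b2* at 0.703% and 0.653% of *Cox6b1* and *Cox7b*, and the hypoxia-induced *Ndufa4l2* at 0.458% of *Ndufa4*. *Cox8b* had 0.0252 to 0.127 CPM and *Cox8c* at most 0.0225 CPM in any library. The 3 genes *Atp5g1*, *Atp5g2* and *Atp5g3* encode the same mature c subunit of the Fo ring, and here *Atp5g3* was the main one: *Atp5g2* stood at 33.5% ± 4.15 and *Atp5g1* at 17.5% ± 1.99 of its level per kilobase.

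**Figure D1:**
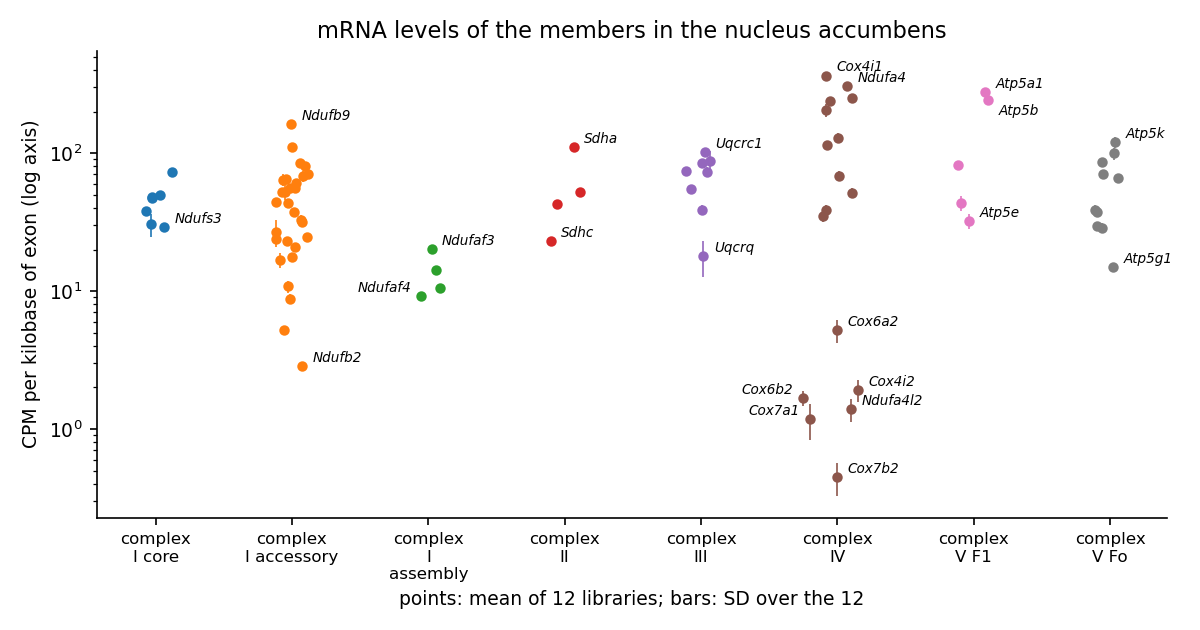
Levels of the members in the NAc by complex, as CPM per kilobase of exon on a log axis, each point the mean and each bar the SD over 12 libraries. *Cox4i1* stands highest at 365, and the alternative isoforms *Cox4i2*, *Cox6b2*, *Cox7a1*, *Cox7b2* and *Ndufa4l2* lie under 2 CPM per kilobase.

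The first comparison asked what SCVS did to these genes in males. Most members were slightly higher in stressed than in unstressed males: 66 of 88 had a positive log2 difference, the median was 0.10, and the median of all tested genes was -0.01. At an unadjusted p under 0.05, 22 members (25.0%) were higher, where 9.93% of all tested genes were, and 1 member (1.14%), *Ndufb2*, was lower, where 11.5% of all tested genes were. The changes were small. None of the 88 reached the study's thresholds of an unadjusted p under 0.05 with a fold change of at least 1.3, which 6.44% of the tested genes reached. *Ndufb9* alone had an adjusted p under 0.05 (voom-limma, Benjamini-Hochberg over all tested genes), against 3.32% of all genes. The 3 SM libraries lay above all 3 NSM libraries for 18 members and below them for 1, where this held for 11.3% and 11.7% of all tested genes. Because the tissue is bulk, more RNA per cell and more cells of a type that is rich in these transcripts cannot be told apart.

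By complex, the largest median was that of complex IV, where 14 of 17 genes had a positive difference, 8 of them with p under 0.05, with a median of 0.14. The Fo part of complex V, counted with the peripheral stalk, followed, with 3 of 10 at p under 0.05 and a median of 0.12, and the F1 part had 2 of 5 with a median of 0.10. In complex II all 4 differences were positive, between 0.09 and 0.12, and that of *Sdhb* passed p under 0.05 (log2 difference 0.11, SE 0.05, unadjusted p = 0.0414, adjusted p = 0.21). Complex III had 1 of 8 at p under 0.05 with a median of 0.08. In complex I the 7 core subunits had a median of 0.08 with 3 higher at p under 0.05. Their differences ran from -0.27, that of *Ndufs7*, which did not pass p under 0.05, to 0.19. The 29 accessory subunits had a median of 0.05 with 4 higher and 1 lower. The 4 assembly factors had a median of 0.00 and none at p under 0.05. In complex IV the count at p under 0.05 was 2 without NSM3 and 4 without SM1, with medians of 0.11 and 0.12. It was 8 or 9 without any other male library. With the cortical marker level as a covariate it was 2, with a median of 0.15. The differences between complexes were not tested.

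**Figure D2:**
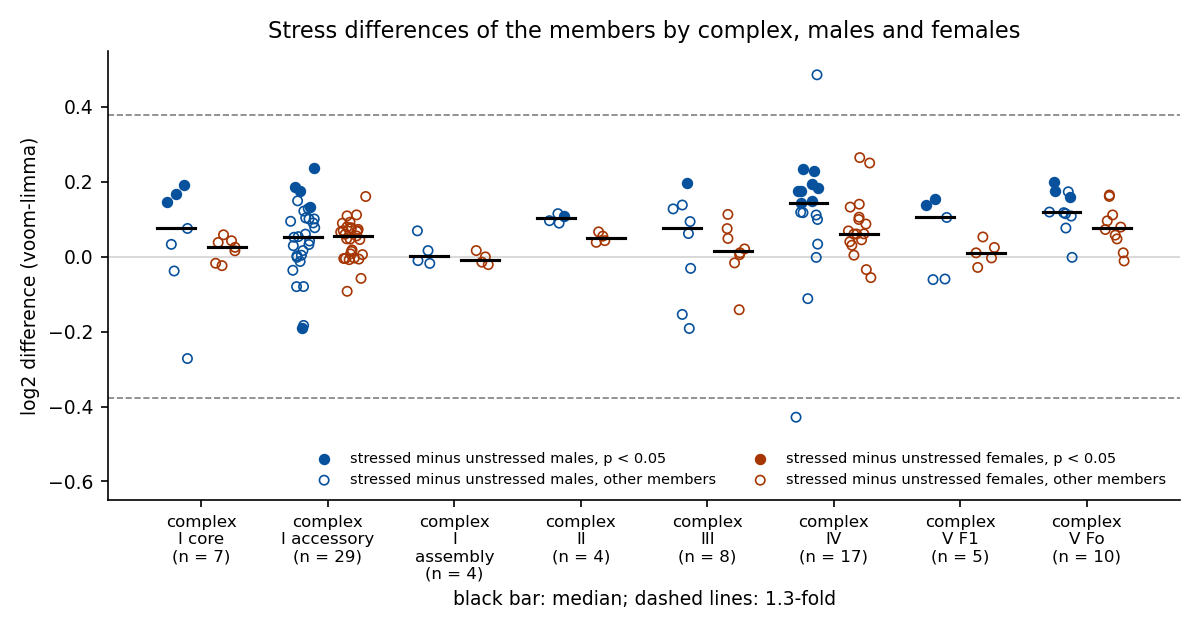
Log2 differences between stressed and unstressed mice for the members of each complex, in males (blue) and females (brown), with filled points at unadjusted p under 0.05 and black bars at the median. In complex IV the male median is 0.14 and the female median 0.06, and no female point is filled.

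*Ndufb9* (ENSMUSG00000022354, chr15:58765365-58771044 in NCBIM37, plus strand), an accessory subunit of the membrane arm of complex I, had 95.2, 101 and 89.7 CPM in the 3 NSM libraries and 115, 110.0 and 112 CPM in the 3 SM libraries. The groups did not overlap, and the SM libraries lay within a few CPM of each other (95.2 ± 5.41 and 112 ± 2.30 CPM, mean ± SD, n = 3). Its difference had the smallest p of the 88 (log2 difference 0.24, SE 0.05, unadjusted p = 0.000464, adjusted p = 0.0282). With each male library left out in turn the adjusted p lay between 0.0362 and 0.11, and it passed 0.05 without NSM1, NSM2 or SM3 and missed it without NSM3, SM1 or SM2.

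*Cox7b* (chrX:103211039-103217789), a small complex IV subunit encoded on the X chromosome, had 84.1, 81.9 and 70.6 CPM in NSM and 92.5, 97.1 and 87.0 CPM in SM. All 3 stressed pools were above the unstressed ones (log2 difference 0.23, SE 0.07, unadjusted p = 0.00393, adjusted p = 0.0772). *Atp5o* (chr16:91684643-91931932, minus strand, a gene model that overlaps 3 other genes), the oligomycin sensitivity conferring protein that ties F1 to the peripheral stalk, had 90.8, 87.3 and 76.4 CPM in NSM and 101, 99.5 and 91.5 CPM in SM. Here too the groups were apart, by less than 1 CPM between their nearest libraries (log2 difference 0.20, SE 0.06, unadjusted p = 0.00692, adjusted p = 0.0959). *Cox4i1* (chr8:123192190-123198109) had 245, 244 and 217 CPM in NSM and 267, 266 and 262 CPM in SM. The 3 stressed pools were close to each other and above the unstressed ones (log2 difference 0.18, SE 0.06, unadjusted p = 0.00782, adjusted p = 0.10). With the cortical marker level as a covariate the difference of *Cox4i1* was 0.14 (unadjusted p = 0.0952).

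Among the core subunits of complex I, *Ndufv2* and *Ndufs3* had the smallest p. *Ndufv2*, an iron-sulfur protein of the NADH module, had 94.6, 90.4 and 81.7 CPM in NSM and 103, 107 and 94.3 CPM in SM, and the lowest SM library lay just under the highest NSM library (log2 difference 0.19, SE 0.06, unadjusted p = 0.00829, adjusted p = 0.10). *Ndufs3*, a core subunit next to the ubiquinone site, had 58.1, 58.6 and 59.0 CPM in NSM and 64.5, 65.6 and 64.4 CPM in SM. The libraries within each group were close together, and the groups were apart (log2 difference 0.15, SE 0.05, unadjusted p = 0.00899, adjusted p = 0.11). *Cox6c*, a small complex IV subunit, had 125, 124 and 104 CPM in NSM and 143, 138 and 133 CPM in SM, without overlap (log2 difference 0.23, SE 0.08, unadjusted p = 0.0105, adjusted p = 0.12). *Cox6b1*, the subunit on the intermembrane side that cytochrome c docks near, had 124, 119 and 104 CPM in NSM and 136, 135 and 123 CPM in SM, and SM3 lay below NSM1 (log2 difference 0.18, SE 0.06, unadjusted p = 0.0126, adjusted p = 0.13).

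*Ndufb2*, an accessory subunit of the membrane arm, went the other way. It had 17.3, 17.8 and 16.8 CPM in NSM and 15.8, 14.5 and 15.3 CPM in SM, and all stressed pools were below the unstressed ones (log2 difference -0.19, SE 0.07, unadjusted p = 0.0113, adjusted p = 0.12). Of the isoform partners, *Cox7a2* (log2 difference 0.19, unadjusted p = 0.0195), *Cox8a* (0.14, unadjusted p = 0.0376) and *Ndufa4* (0.15, unadjusted p = 0.0452) were also higher at an unadjusted p under 0.05, whereas *Cox6a1* had a log2 difference of 0.10 (unadjusted p = 0.19). None of the low isoforms passed: *Cox4i2* had 0.11 (SE 0.20), *Cox6a2* 0.03 (SE 0.20), *Cox6b2* -0.11 (SE 0.19), *Cox7a1* -0.43 (SE 0.34) and *Cox7b2* 0.49 (SE 0.33) on the log2 scale. For these genes, with under 6 CPM in every library, the SEs are too wide to show a change of the size seen in the abundant subunits. The 3 c subunit genes had log2 differences of 0.12 for *Atp5g1* (unadjusted p = 0.0639), 0.08 for *Atp5g2* (unadjusted p = 0.35) and 0.00 for *Atp5g3* (unadjusted p = 0.98).

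**Figure D3:**
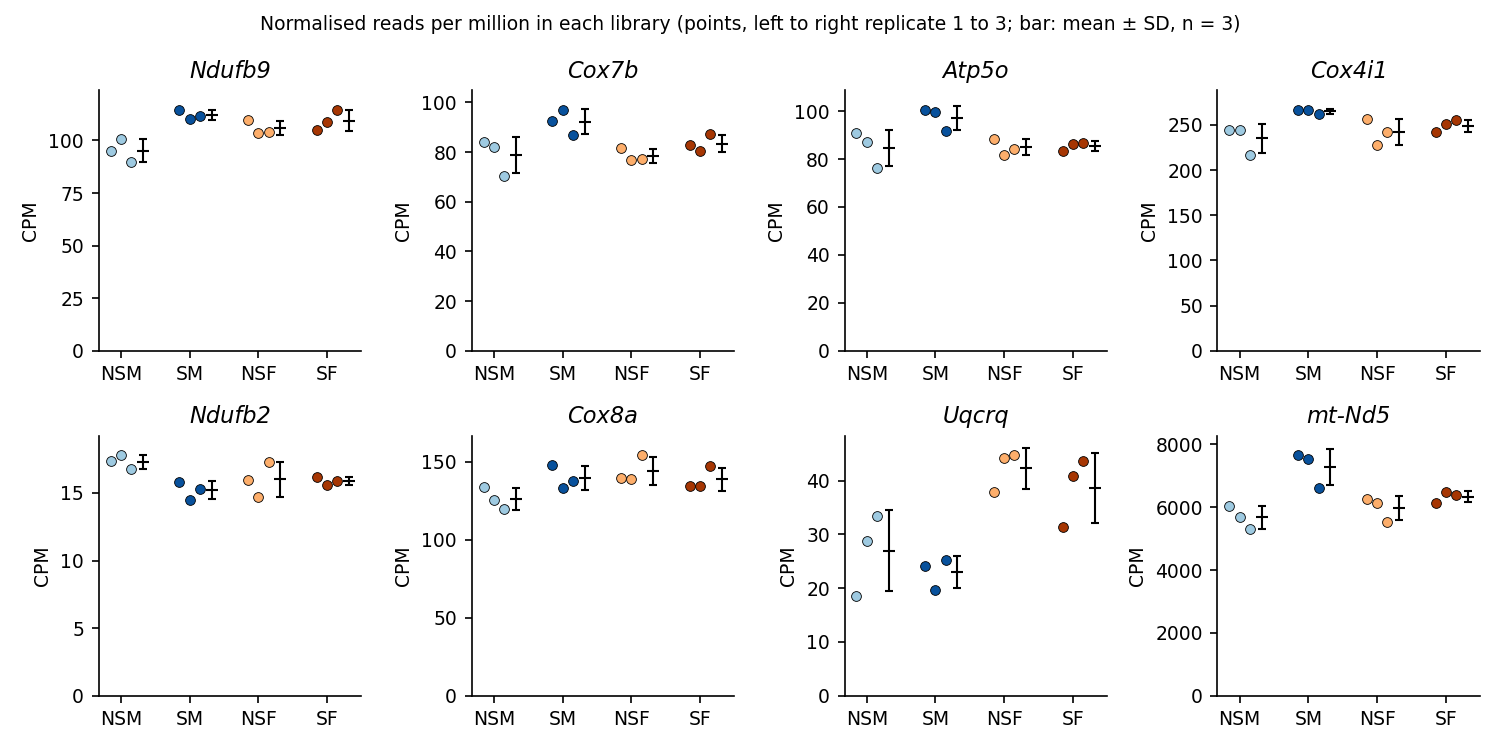
CPM in each of the 12 libraries for 7 members and the mitochondrially encoded *mt-Nd5*, with axes from 0, points for replicates 1 to 3 and bars for mean ± SD (n = 3). The SM points of *Ndufb9*, *Cox7b*, *Atp5o* and *Cox4i1* lie above the NSM points, those of *Ndufb2* lie below them, and *Uqcrq* is higher in NSF than in NSM.

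The male difference depended on single libraries. The median member of NSM3 lay -0.12 on the log2 scale from its mean over 12 libraries, 77 of 88 members were below their mean in this library, and 36 had their lowest value of all 12 libraries there. The other NSM medians were -0.02 and 0.00, and those of SM were 0.10, 0.05 and 0.00. SM1 held the highest value of all 12 libraries for 35 members. Without NSM3, the counts of members at p under 0.05 were 6 higher and 1 lower. Without SM1 they were 9 higher and 1 lower, without NSM1 31 higher and 6 lower and without SM3 34 higher and 2 lower. Shares of all tested genes are given here only for the main fit. Whether the counts in these and the later alternative fits exceed the shares of those fits was not tested. *Cox6c*, *Cox6b1*, *Cox7a2*, *Cox8a*, *Ndufa4*, *Ndufa1* and *Sdhb* lost an unadjusted p under 0.05 without NSM3, and the last 5 also without SM1. *Cox8a* lost it without NSM2, *Ndufa4* without SM2 and *Sdhb* without NSM1 or SM2 as well. *Atp5o* kept it without NSM3 at a smaller 0.13 (unadjusted p = 0.0285), and *Ndufb2* lost it without NSM2 or SM2. The median difference over that of all genes stayed positive in these fits, between 0.06 without NSM3 and 0.14 without NSM2.

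Other signals moved with SCVS in males. The 5 red blood cell markers, *Hba-a1*, *Hba-a2*, *Hbb-b1*, *Hbb-b2* and *Alas2*, summed to 21.8 to 27.4 CPM in NSM and 38.5 to 47.2 CPM in SM, and all 5 were higher with an adjusted p under 0.05. The 5 oligodendrocyte markers summed to 4275 to 4779 and 5158 to 5199 CPM (4 of 5 higher at p under 0.05), and the 5 microglial markers to 205 to 225 and 232 to 259 CPM (4 of 5). The 10 medium spiny neuron markers summed to 5719.9 to 6606 and 6286 to 7085 CPM (3 of 10 higher, 0 lower), and the 5 astrocyte markers to 1032 to 1117 and 982 to 1074 CPM (1 of 5 lower). Of the 10 cortical markers 9 had a positive and 1 a negative difference, with a median of 2.49, and 3 were higher at p under 0.05. The 5 choroid plexus markers summed to 108 CPM in NSM1 and to 32.0 to 43.7 CPM in the other 11 libraries, and in males all 5 had a negative difference with a median of -0.83, 1 of them at p under 0.05. NSM1 is the library without which the male count was highest. With the cortical marker level of each library as a covariate, the counts of members at p under 0.05 were 10 higher and 1 lower, while the median difference over all genes was 0.11. The summed cortical markers did not overlap between NSM and SM, so that fit can only partly separate their level from the stress groups. The part of the other cell types in the result was not tested.

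**Figure D4:**
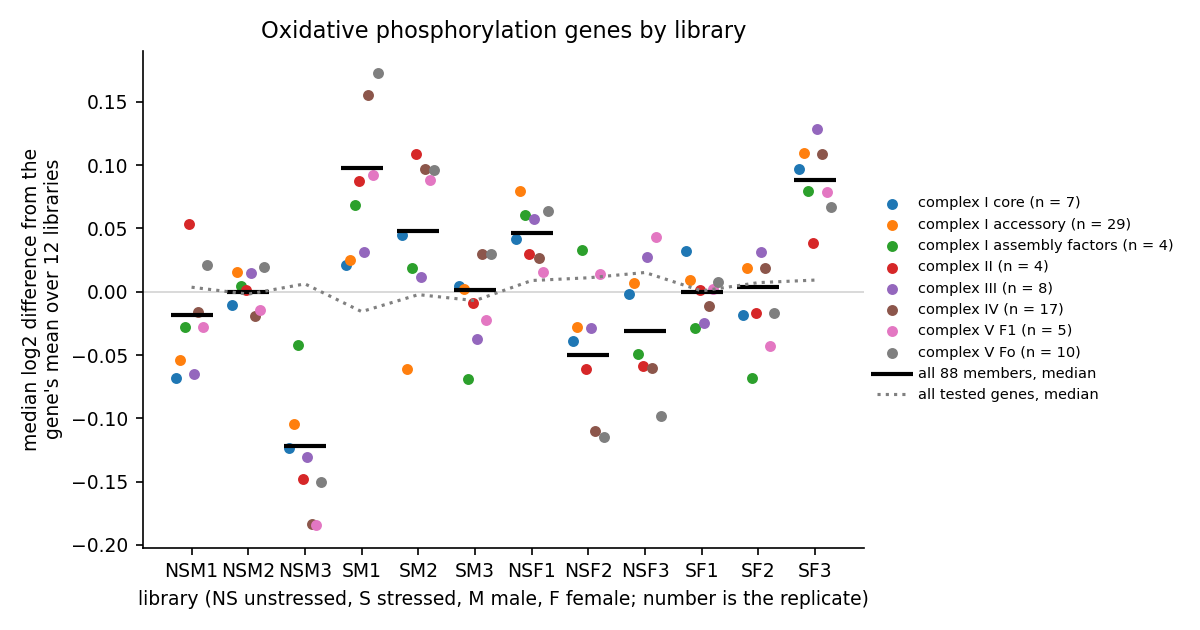
Median log2 difference of the members from each gene's mean over the 12 libraries, by library; coloured points are complexes, black bars all 88 members and the dotted line all tested genes. NSM3 is lowest at -0.12 and SM1 highest at 0.10, and single libraries of 1 group differ by as much as the groups do.

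In females no member passed an unadjusted p under 0.05 after SCVS, where 1.94% of all tested genes were higher and 2.29% lower at that level. The smallest p was that of *Atp5g2*, with 19.3, 15.7 and 15.8 CPM in NSF and 19.0, 17.7 and 19.7 CPM in SF (log2 difference 0.16, SE 0.08, unadjusted p = 0.0664, adjusted p = 0.95). NSF1 was as high as the stressed pools, and the other NSF libraries were lower. The differences were nonetheless mostly positive, in 69 of 88 members, with a median of 0.05 beside 0.00 for all tested genes. No member reached the study's thresholds (1.73% of all tested genes did) or an adjusted p under 0.05 (0% of all tested genes). Groups did not overlap for 2 members, *Sdha* and *Ndufa3*, both higher in SF, and for none in the other direction, where 4.90% and 6.41% of all tested genes did not overlap. *Sdha* had 421, 416 and 412 CPM in NSF and 425, 427 and 436 CPM in SF (log2 difference 0.04, SE 0.05, unadjusted p = 0.41, adjusted p = 0.95). *Ndufa3*, an accessory subunit of complex I outside the rule for named genes, had 48.0, 43.8 and 43.5 CPM in NSF and 49.1, 48.4 and 48.3 CPM in SF (log2 difference 0.11, SE 0.06, unadjusted p = 0.0855, adjusted p = 0.95).

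The female libraries also varied. NSF1 lay at 0.05 and NSF2 and NSF3 at -0.05 and -0.03, whereas SF1 and SF2 lay near 0 (0.00 and 0.00) and SF3 at 0.09, with 80 of 88 members above their mean. Without NSF1, 11 members had p under 0.05, all higher in SF, and without SF1 or SF2 2 and 1. The edgeR quasi-likelihood and DESeq2 tests called none at that level. Without SF3 the median difference over all genes was 0.02 in place of 0.05. The 4 genes of complex II, for example, had log2 differences of 0.04 for *Sdha*, 0.05 for *Sdhb*, 0.04 for *Sdhc* and 0.07 for *Sdhd*, all smaller than their male values of 0.09, 0.11, 0.12 and 0.10.

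In females, the isoform pairs and the c subunit genes had intervals that all included 0. *Cox4i1* had a log2 difference of 0.05 (95% interval -0.08 to 0.17), *Cox7b* 0.09 (-0.05 to 0.23), *Cox6a1* 0.07 (-0.09 to 0.22) and *Ndufa4* 0.06 (-0.09 to 0.21). The low isoforms *Cox7a1* (-0.75 to 0.68) and *Cox7b2* (-0.47 to 1.00) had far wider intervals. *Atp5g3*, the main c subunit gene, had -0.01 (-0.14 to 0.11) and *Atp5g1* 0.08 (-0.05 to 0.21).

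Whether the sexes differed in their response was tested as a sex-by-stress interaction. The median member had an interaction of -0.03, a smaller response in females, beside 0.01 for all tested genes. At an unadjusted p under 0.05, 3 members were below 0 and 0 above, where 4.40% and 5.14% of all tested genes were. No member reached the thresholds (4.42% of tested genes) or an adjusted p under 0.05 (0.0269%). With library size alone in place of TMM scaling the counts were 1 higher and 1 lower. They also moved with single libraries, to 4 higher and 8 lower without NSM1, 1 higher and 8 lower without SM3, 0 higher and 5 lower without SF3, 0 higher and 1 lower without NSM3, SM1 or SF2, and 0 higher and 0 lower without SF1. The 3 members were *Ndufb9* (log2 difference -0.19, SE 0.07, unadjusted p = 0.0211, adjusted p = 0.44), *Ndufa12* (log2 difference -0.19, SE 0.08, unadjusted p = 0.0374, adjusted p = 0.49) and *Cox8a* (log2 difference -0.20, SE 0.09, unadjusted p = 0.0406, adjusted p = 0.50). Markers of other cell types had interactions too. At p under 0.05, 7 of 10 cortical markers (median -3.14) and 5 of 5 red blood cell markers (median -0.84) were below 0. So were 3 of 6 markers of pericytes and vascular smooth muscle (median -0.22), 2 of 5 oligodendrocyte markers (median -0.15) and 2 of 5 endothelial markers (median -0.13). In the other direction, 1 of 5 choroid plexus markers (median 1.48), 1 of 5 astrocyte markers (median 0.13) and 1 of 6 interneuron markers (median -0.10) were above 0. Their part in the interaction of the members was not tested.

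*Ndufb9* had 109.8, 104 and 104 CPM in NSF and 105, 109 and 115 CPM in SF, so that the NSM libraries were the lowest of the 12 and the SF libraries spanned most of the range of NSF and SM. In females its log2 difference after SCVS was 0.05, with a 95% interval from -0.07 to 0.16. Between NSF and NSM the log2 difference of *Ndufb9* was 0.16, without overlap. That difference had an unadjusted p under 0.05 in 4 of 6 fits with 1 library left out and in 11 of 13 other fits. The male difference, the sex difference and the interaction all use the same NSM libraries. *Ndufa12*, an accessory subunit at the NADH arm, had 31.2, 31.4 and 31.6 CPM in NSM, 37.3, 32.2 and 32.0 in SM, 33.4, 35.4 and 35.1 in NSF and 31.9, 31.8 and 33.9 in SF. SM1 was far above the other SM libraries. *Cox8a*, the common isoform of the smallest complex IV subunit, had 134, 126 and 119 CPM in NSM, 148, 133 and 137 in SM, 139, 139 and 154 in NSF and 134, 134 and 147 in SF. Its groups overlapped in each sex, with SM2 below NSM1 and SF3 above the 2 lower NSF libraries.

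The mitochondrial genome encodes further subunits of complexes I, III, IV and V. All 12 of its tested mRNAs for them were higher in SM than in NSM at an unadjusted p under 0.05. An adjusted p under 0.05 was reached by 9 of them. Their median log2 difference was 0.33, beside 0.10 for the nuclear members. *mt-Nd5*, a proton-pumping subunit of complex I, had 6031, 5699 and 5307 CPM in NSM and 7673, 7552 and 6617 CPM in SM (log2 difference 0.36, SE 0.07, unadjusted p = 0.000151, adjusted p = 0.0183). *mt-Co1*, the catalytic subunit of complex IV, had 23972, 23666 and 20721 CPM in NSM and 29245, 29159 and 26059.7 CPM in SM (log2 difference 0.31, SE 0.07, unadjusted p = 0.000705, adjusted p = 0.0351). The groups did not overlap for 11 of the 12. No library decided this direction: with each male library left out, 10 to 12 of the 12 kept an unadjusted p under 0.05, though 0 had an adjusted p under 0.05 without NSM2, NSM3, SM1 or SM2. Under quantile normalization, which gives every library the same distribution of values, the median was 0.01 and 3 of 12 passed. That method gives equal ranks equal values, so it cannot show a shift of genes that keep their ranks. The female median in that fit was 0.00. In females the median was 0.10 and none passed p under 0.05. The interaction was below 0 at an unadjusted p under 0.05 for 6 of 12, with the smallest for *mt-Nd5* (log2 difference -0.27, SE 0.10, unadjusted p = 0.0154, adjusted p = 0.41), and for none after adjustment.

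Other lists, of mitochondrial, glycolytic and ribosomal protein genes, were counted in the same way in males. At p under 0.05, 9.93% of all tested genes were higher and 11.5% lower in males. The differences between lists were not tested. Of 17 genes of the citric acid cycle and pyruvate dehydrogenase, 4 were higher at p under 0.05 and none lower, with a median of 0.08. They included *Pdha1*, the E1 subunit of pyruvate dehydrogenase, with a log2 difference of 0.18 (adjusted p = 0.084), *Ogdh* (0.17) and *Suclg2* (0.19). *Suclg2* lost its p under 0.05 without NSM3, SM1 or SM2. Of 16 glycolytic genes 1 was higher, and of 76 mitochondrial ribosomal proteins 3 were higher and 3 lower with a median of 0.01. The 97 cytosolic ribosomal proteins had 13 higher and 0 lower with a median of 0.08 in males and 3 higher with a median of 0.07 in females. With 1 library left out, the number higher ran from 1 (without NSM3) to 24 (without SM3) in males. In females it ran from 0 to 30 (without NSF1). Among 25 assembly factors 3 were higher, led by the F1 assembly factor *Atpaf1* (log2 difference 0.26, adjusted p = 0.054). The 5 carriers and subunits outside the symbol rule all had a positive difference, with a median of 0.16, and 1 was higher at p under 0.05, *Atpif1*, the ATP synthase inhibitor (log2 difference 0.22, unadjusted p = 0.0216), which lost that call without NSM3, SM1 or SM2.

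Of 12 regulators of mitochondrial biogenesis 1 was higher and 1 lower in males at p under 0.05, with a median of -0.07. *Gabpa*, the DNA-binding subunit of nuclear respiratory factor 2, had 43.7, 47.0 and 45.4 CPM in NSM and 40.0, 40.8 and 38.1 CPM in SM, and was lower without overlap (log2 difference -0.19, SE 0.05, adjusted p = 0.0488). Its adjusted p lay between 0.0489 and 0.17 with 1 male library left out, and passed 0.05 in 1 of these 6 fits. In females it had 38.8, 40.3 and 39.9 CPM in NSF and 43.4, 40.2 and 40.8 in SF, and the interaction was 0.26 (unadjusted p = 0.00258, adjusted p = 0.25). *Tfb2m*, a mitochondrial transcription factor, was higher in SM (log2 difference 0.18, unadjusted p = 0.0419), but lost that call without NSM2, NSM3, SM1 or SM2 (unadjusted p up to 0.13). *Ppargc1a*, which encodes PGC-1alpha, had a difference of 0.10 (unadjusted p = 0.12), *Nrf1* -0.06 (unadjusted p = 0.34) and *Tfam* 0.05 (unadjusted p = 0.38).

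Promoter sequences are shown for members that were higher in stressed males, to set beside the factors known to act on this gene family. RefSeq windows of 300 bases, 250 before and 50 after each start in GRCm38.p6, were at hand for 70 of the 88 genes. Of the 8 members with the smallest p among those higher in SM, 5 had such a window, and the 250 bases before their start are printed 5′ to 3′ on the gene's strand, with capitals for a match to a searched motif.
Cox7b, chrX:106015450-106015699, plus strand: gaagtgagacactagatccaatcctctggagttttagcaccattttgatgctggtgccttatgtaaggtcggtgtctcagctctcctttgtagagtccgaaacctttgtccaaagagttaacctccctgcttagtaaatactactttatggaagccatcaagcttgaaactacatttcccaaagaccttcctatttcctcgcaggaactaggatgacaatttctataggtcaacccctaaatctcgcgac
Atp5o, chr16:91931631-91931880, minus strand: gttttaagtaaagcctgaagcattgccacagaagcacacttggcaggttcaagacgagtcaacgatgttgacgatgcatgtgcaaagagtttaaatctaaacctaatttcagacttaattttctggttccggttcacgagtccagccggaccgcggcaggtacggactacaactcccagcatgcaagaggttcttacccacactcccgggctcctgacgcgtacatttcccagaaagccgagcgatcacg
Ndufv2, chr17:66101560-66101809, minus strand: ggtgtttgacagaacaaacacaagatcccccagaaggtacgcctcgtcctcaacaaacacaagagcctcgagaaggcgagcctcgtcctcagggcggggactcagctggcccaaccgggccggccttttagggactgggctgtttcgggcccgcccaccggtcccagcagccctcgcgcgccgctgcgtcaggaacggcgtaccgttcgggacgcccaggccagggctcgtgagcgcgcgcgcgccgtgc
Ndufs3, chr2:90904722-90904971, minus strand: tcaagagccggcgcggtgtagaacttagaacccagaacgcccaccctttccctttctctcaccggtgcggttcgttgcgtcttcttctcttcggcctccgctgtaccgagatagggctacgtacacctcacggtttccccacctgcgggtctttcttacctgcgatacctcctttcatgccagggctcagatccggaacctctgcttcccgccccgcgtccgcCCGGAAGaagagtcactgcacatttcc
Cox6b1, chr7:30626115-30626364, minus strand: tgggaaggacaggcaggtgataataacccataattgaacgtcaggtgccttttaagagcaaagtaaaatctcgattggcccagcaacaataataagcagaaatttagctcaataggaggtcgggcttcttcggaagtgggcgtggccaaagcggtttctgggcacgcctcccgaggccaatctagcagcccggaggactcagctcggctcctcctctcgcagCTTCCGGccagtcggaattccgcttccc
The capitals in *Ndufs3* and *Cox6b1* mark the motif of ETS factors such as GABPA, CCGGAAG or its reverse complement CTTCCGG, which starts 27 bases before the start of *Ndufs3* on the gene's strand and 28 bases before that of *Cox6b1* on the other. *Cox7b*, *Atp5o* and *Ndufv2* hold no match in these 250 bases. In its full window of 300 bases *Atp5o* holds a match to the NRF1 motif given below, which reaches into the 50 bases not printed. *Cox7b* and *Ndufv2* hold no match in their full windows either. Over the full windows on both strands, the ETS motif was found in 17 of 75 member windows (22.7%) and in 8.86% of all 32851 windows. The motif of NRF1, GCGCANGCG, was in 22 member windows (29.3%, all windows 6.25%), that of YY1, AANATGGCG, in 10 (13.3%, all windows 2.38%) and that of the estrogen-related receptors, TCAAGGTCA, in 2 (2.67%, all windows 0.423%). A match is a match of letters and says nothing of binding in this tissue.

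The last comparison set unstressed females against unstressed males. Here 21 members (23.9%) were higher in NSF at an unadjusted p under 0.05 and 0 lower, where 10.2% and 5.17% of all tested genes were. With library size alone in place of TMM scaling the counts were 15 higher and 2 lower, without NSM1 9 higher and 0 lower, and without NSF3 11 higher and 1 lower. The median was 0.04 beside 0.00 for all tested genes. The groups did not overlap for 22 members, all higher in NSF, where 11.0% of all tested genes were higher and 8.45% lower without overlap. The study's thresholds were passed by 2 members, *Uqcrq* and *Ndufa4l2* (5.31% of all tested genes), by 1 without NSM1, 5 without NSM2 and 6 without NSM3, and an adjusted p under 0.05 by none (0.285%). Markers of other cell types differed between these groups too: 6 of 10 cortical markers (median 2.73), 3 of 5 oligodendrocyte and 2 of 5 red blood cell markers were higher in NSF at p under 0.05, and 2 of 5 astrocyte, 1 of 10 medium spiny neuron and 1 of 5 choroid plexus markers were lower. Their part in the sex difference was not tested. This comparison and the male stress comparison share the 3 NSM libraries, so that a low NSM library raises a gene in both.

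*Uqcrq* (ENSMUSG00000044894, chr11:53241424-53244333, minus strand), the small ubiquinone-binding subunit of complex III, had 18.6, 28.8 and 33.5 CPM in NSM, 24.1, 19.7 and 25.2 in SM, 37.8, 44.2 and 44.8 in NSF and 31.4, 40.9 and 43.7 in SF. Every NSF library was above every NSM library (log2 difference 0.70, SE 0.17, unadjusted p = 0.00142, adjusted p = 0.11), and only SF1 fell into the range of the male libraries. Its size depended on NSM1, the lowest library, without which it was 0.43 (unadjusted p = 0.00635). *Ndufa4l2* had 0.971, 1.12 and 1.32 CPM in NSM and 1.42, 1.60 and 1.57 CPM in NSF. The levels were low and the groups apart (log2 difference 0.45, SE 0.15, unadjusted p = 0.0116, adjusted p = 0.19), though the difference lost p under 0.05 without NSM1 (log2 0.32, unadjusted p = 0.0734).

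The other members with the smallest p were smaller differences of abundant genes. *Ndufb10*, an accessory subunit of complex I, had 73.3, 78.5 and 76.5 CPM in NSM and 82.2, 94.6 and 92.8 CPM in NSF (log2 difference 0.24, SE 0.06, unadjusted p = 0.00222, adjusted p = 0.12). *Atp5d*, the delta subunit of the F1 central stalk, had 70.2, 78.8 and 82.1 CPM in NSM and 88.1, 92.5 and 98.3 in NSF (log2 difference 0.27, SE 0.07, unadjusted p = 0.00266, adjusted p = 0.13). *Cox6a1* had 119, 136 and 126 CPM in NSM and 147, 147 and 163 in NSF (log2 difference 0.26, SE 0.07, unadjusted p = 0.00285, adjusted p = 0.13). In these 3 the NSF libraries lay above all NSM libraries. The log2 difference was 0.17 for *Uqcrc1* (unadjusted p = 0.00424), 0.22 for *Ndufc2*, an accessory subunit of the membrane arm (unadjusted p = 0.00476), 0.15 for *Ndufs3* (unadjusted p = 0.00607) and 0.19 for *Cox8a* (unadjusted p = 0.0084). *Ndufs3* and *Cox8a* were higher than in NSM both in SM and in NSF, though *Cox8a* lost an unadjusted p under 0.05 between the sexes without NSF3 and after the GC correction described next. With the cortical marker level as a covariate both genes lost it in both comparisons. For *Ndufs3* the log2 difference was then 0.11 in males (unadjusted p = 0.11) and 0.12 between the sexes (unadjusted p = 0.12). For *Cox8a* it was 0.11 (unadjusted p = 0.24) and 0.15 (unadjusted p = 0.13). With library size alone both lost it in males (unadjusted p = 0.0582 and 0.15).

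The sex difference moved with the base composition of the transcripts. Over all tested genes the median log2 difference between NSF and NSM was -0.05 in the lowest of 8 bins of exon GC content (median GC 40.3%) and 0.19 in the highest (median GC 59.0%). The 10 members in the highest bin had a median of 0.20 and the 7 in the lowest a median of 0.00. After the trend with GC content was removed from each library, the counts at p under 0.05 were 12 higher and 1 lower, *Uqcrq* had a log2 difference of 0.70 (unadjusted p = 0.00141) and *Cox6a1*, with a GC content of 62.8%, went to -0.03 (unadjusted p = 0.66). In the same fit *Cox8a* fell to 0.02 (unadjusted p = 0.78), *Uqcrc1* to 0.05 (unadjusted p = 0.36) and *Ndufa4l2* to 0.27 (unadjusted p = 0.0799), all with p over 0.05, while *Atp5d* kept its call at a smaller 0.12 (unadjusted p = 0.0197). With the cortical marker level, which itself differed between these groups, as a covariate the counts were 3 higher and 0 lower. In the male stress comparison the trend ran the other way and was weaker, from 0.02 to -0.08, and after the same correction the counts were 26 higher and 1 lower. 

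**Figure D5:**
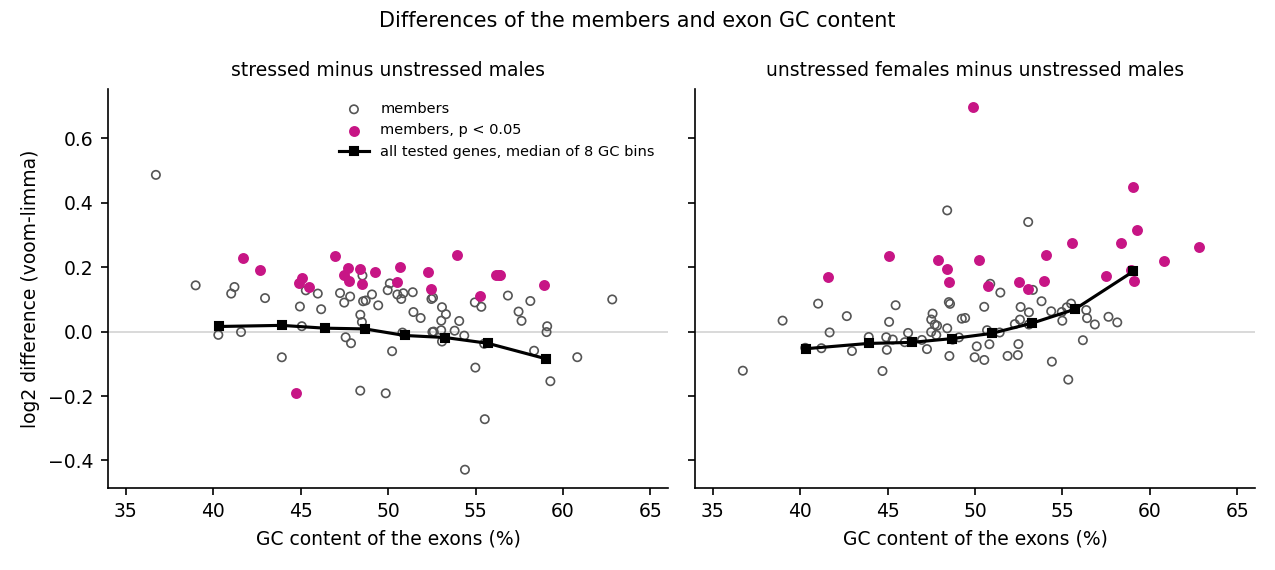
Log2 differences of the 88 members against the GC content of their exons, for stressed minus unstressed males (left) and unstressed females minus unstressed males (right), with filled points at unadjusted p under 0.05 and a black line for the medians of all tested genes in 8 GC bins. On the right the line climbs from -0.05 to 0.19, and *Uqcrq* lies above it at 0.70.

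Among the members above 10 CPM in every library, *Ndufb6*, *Uqcrq*, *Uqcr11* and *Ndufs7* varied most within groups, and these 4 were picked for this after their values were seen. *Ndufb6*, an accessory subunit of complex I, had 10.2, 18.9 and 19.2 CPM in NSM, 14.8, 11.7 and 14.2 in SM, 22.2, 19.6 and 18.1 in NSF and 19.4, 20.8 and 23.0 in SF. *Uqcr11*, the smallest complex III subunit, had 38.1, 58.8 and 56.9 CPM in NSM, 49.1, 38.9 and 48.4 in SM, 66.3, 59.5 and 62.1 in NSF and 57.3, 65.9 and 71.7 in SF. *Ndufs7*, a core subunit at the ubiquinone site, had 37.9, 52.3 and 58.1 CPM in NSM, 41.3, 35.4 and 44.6 in SM, 59.4, 57.2 and 59.5 in NSF and 55.6, 60.5 and 65.1 in SF. All 4 were lowest in NSM1 or SM2, and higher in the female than in most male libraries. Their within-group SDs on the log2 scale were 0.293 for *Ndufb6*, 0.279 for *Uqcrq*, 0.218 for *Uqcr11* and 0.191 for *Ndufs7*, where the median member had 0.0861 and the median tested gene 0.118. In males after SCVS all 4 had a negative log2 difference, none at an unadjusted p under 0.05 (voom-limma). It was -0.18 for *Ndufb6*, -0.19 for *Uqcrq*, -0.15 for *Uqcr11* and -0.27 for *Ndufs7*. That of *Ndufs7* passed p under 0.05 in 2 of 6 fits with 1 male library left out and in 7 of 13 other fits.

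Of the 3 members on the X chromosome, *Ndufb11* had 45.0, 49.0 and 49.4 CPM in NSM and 53.9, 51.5 and 53.9 in NSF and was higher in females (log2 difference 0.15, SE 0.06, unadjusted p = 0.0306, adjusted p = 0.27), a call it lost without NSM1, NSF1 or NSF3. *Ndufa1* (log2 difference 0.04, SE 0.07, unadjusted p = 0.62) and *Cox7b* (0.00, SE 0.07, unadjusted p = 0.97) did not pass. In males after SCVS, *Ndufa1* had a log2 difference of 0.18 (unadjusted p = 0.0286) and *Ndufb11* of 0.00 (unadjusted p = 0.98). Among the regulators, *Esrra*, the estrogen-related receptor alpha, had 22.1, 31.6 and 33.2 CPM in NSM and 38.1, 39.8 and 40.8 in NSF and passed the study's thresholds (log2 difference 0.48, SE 0.12, unadjusted p = 0.00172, adjusted p = 0.11). Without NSM1 its difference was 0.28 (unadjusted p = 0.0065) and after GC correction 0.22 (unadjusted p = 0.00417), both under the fold threshold, and with the cortical covariate its p was 0.0504. *Gabpa* was lower in NSF (log2 difference -0.19, unadjusted p = 0.00157). The 12 mitochondrially encoded mRNAs had a median sex difference of -0.02, and none passed p under 0.05.

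Some values rest on reads that could be shared. For 21 of the 88 members, at least 1 other place in NCBIM37 matched at least 80% of the coding sequence with an identity of at least 95%, among them *Cox7b* (2 places), *Atp5o*, *Cox6c*, *Ndufs3* and *Ndufa12* (1 each). The kit does not mark strand, and exons of 18 members, such as *Ndufs3*, *Cox6c*, *Atp5d* and *Ndufb6*, overlap a gene on the other strand. *Ndufb9*, *Cox4i1*, *Cox8a*, *Uqcrq* and *Uqcrc1* had neither.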

How the data were processed

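Poly(A) mRNA libraries from the large-RNA fraction of 12 NAc pools were prepared with TruSeq RNA v2 and sequenced as paired 50-base reads. Per the labels and the study's methods, the authors aligned reads with TopHat2 to NCBIM37 (Ensembl 67) and deposited raw read counts per gene from HTSeq, with no normalization. Tool versions and the strand setting are not given in the sources used here. Groups followed the sample titles, and small-RNA counts were not used here.

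Symbols came from GENCODE vM1 for 33789 of 38293 gene IDs. A gene was kept if over 5 reads fell on it in 80% or more of any group's libraries. Counts were TMM-scaled and all genes were tested with voom-limma (limma 3.58.1, edgeR 4.0.16, R 4.3.3) in 1 model of the 4 groups, with Benjamini-Hochberg adjustment. This was tested on simulated data. DESeq2 1.42.0, other scalings, filters, weights and left-out libraries were alternatives. GC correction, the cortical covariate and leaving out NSM1 with SM2 were added after the data were seen. Coding sequences were compared with the genome by BLAST 2.17.0. Libraries held 41076780 counts or more, and counting error is small for most members, of which 73 had over 1000 reads in every library.

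The members and gene lists were chosen with earlier results of these data known. Genes named were those past the thresholds, up to 8 with the smallest unadjusted p under 0.05 per direction, tissue isoforms with their partners, *Atp5g* and *Sdh* genes, X-linked members, and the highest and lowest member per complex. Some genes that this rule takes in are not reported here.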

Additional observations from a re-analysis of the deposited data

Results flagged for a closer look

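The sex-by-stress interaction term of the voom-limma fit had an unadjusted p under 0.05 for 3 members, and an adjusted p under 0.05 for none. All 3 were below 0, which is a smaller share of the 88 members than the 4.40% of all tested genes below 0 at that level, and no member was above 0, where 5.14% of all tested genes were. *Ndufb9* had an interaction of -0.19 on the log2 scale (unadjusted p = 0.0211, adjusted p = 0.44), with a male difference of 0.24 and a female difference of 0.05. *Ndufa12* had -0.19 (unadjusted p = 0.0374, adjusted p = 0.49), with 0.10 in males and -0.09 in females. *Cox8a* had -0.20 (unadjusted p = 0.0406, adjusted p = 0.50), with 0.14 in males and -0.06 in females. *Ndufb9* lost an unadjusted p under 0.05 without NSM3, NSF1 or SF1, and *Ndufa12* and *Cox8a* lost it without any 1 of 7 and 6 single libraries, among them SM1, NSM2, NSF3, SF1 and SF2 for both.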

How the results depend on the processing

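The median log2 difference of the members over that of all genes kept its sign in every fit, with 1 library left out at 0.0563 to 0.137 in males, 0.0173 to 0.0858 in females, -0.0796 to -0.0117 for the interaction and 0.00358 to 0.0633 for sex. Counts of members at an unadjusted p under 0.05 moved more. With 1 library left out they were 7 to 37 in males (23 with all libraries), 0 to 11 in females (0), 0 to 12 for the interaction (3) and 9 to 26 for sex (21), and the counts past the study's thresholds were 0 to 3, 0 to 0, 0 to 3 and 1 to 6. With library size only the male count was 15. With the cortical covariate it was 11 in males and 3 for sex, with 1 past the thresholds. GC correction gave 13 for sex, 1 past the thresholds, and turned *Cox6a1* to -0.034. Without NSM1 and SM2 the interaction count was 9 and that for sex 9, with 1 in males, 2 for the interaction and 1 for sex past the thresholds. Library quality weights gave 10 for the interaction and 1 past the thresholds in males, and quantile normalization gave 6 for the interaction. Keeping genes with at least 1 read gave 1 in females, 1 past the thresholds. The replicate block gave 29 in males, 3 in females, 6 for the interaction and 21 for sex. Same-numbered libraries deviated together in part of the comparisons. In males their r ran from 0.000725 to 0.316, above the largest r of differently numbered libraries only for replicate 3. In females it was 0.1003, 0.0756 and 0.107, each above that largest r (0.0232 to 0.0318). For sex it was above for replicates 1 and 3 (0.135 and 0.125) and below for replicate 2 (-0.0266). Whether same-numbered libraries share a batch was not tested. The median level per kilobase was 59.8 CPM by longest transcript. The causes were not tested. With 3 pools per group, changes of about 0.1 on the log2 scale are near the spread between pools.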
